A study of Mus musculus with 9 samples.

Results

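The comparison of astrocytes transfected with JICD1 against astrocytes that received the empty vector was described across every gene row of the authors' deposited table for that pair, 18971 genes of 20076 distinct genes in the series. All cells were cultured murine brain astrocytes of genotype Ink4a-/-, grown in high-glucose DMEM with serum, antibiotics and glutamine, so the Ink4a deletion is carried by the controls too. The 3 control libraries came from cells transfected with pcDNA puro, and the 3 libraries labelled JICD1 from cells transfected with pcDNA HA-JICD1 puro, a vector for the HA-tagged intracellular domain of Jagged1. Another set of 3 libraries, transfected with pcDNA NICD puro, was set against the same 3 controls in a second table of 19287 genes and serves here as a side-by-side value. The labels do not give the number of transfections, whether the cells are clones, the promoter of the vectors, or whether the 3 libraries of a group came from separate cultures. In the authors' deposited table each gene has 1 log2 ratio, JICD1 over control, and 1 score from 0 to 1 under the heading Probability. Values of single libraries were not analysed here. The ratios below therefore carry no replicate error, test or p-value, and the sequencing depth is unknown. A gene is called higher or lower where its score is 0.8 or more; the score is not a p-value, and the sources used here do not give its method.

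Jagged1 is a membrane ligand of the Notch receptors. Like the receptors it can be cut within the membrane, which frees its intracellular domain, JICD1, to enter the cytoplasm and the nucleus. Astrocytes are the glial cells that support neurons, and in culture with serum they take on a proliferating form that secretes cytokines, growth factors and matrix.

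Jag1 did not check the label. The authors' deposited table lists it at -1.39 on the log2 scale (score 0.759), lower in the libraries labelled JICD1 and not called, and at 1.36 with a score of 0.819 in the NICD1 table. The sources used here do not give the species or the bases of the JICD1 insert, so its reads may or may not be counted to Jag1. Every direction below therefore rests on the label. Notch1, the receptor gene, had 1.33 with a score of 0.735 in the JICD1 table and 1.77 with a score of 0.815 in the NICD1 table, per the authors' deposited tables. Cdkn2a, the gene of the Ink4a product, had no JICD1 ratio. The authors' deposited NICD1 table lists Cdkn2a at 7.59 with the control inferred to lie at a floor. Its neighbour Cdkn2b, another cell cycle inhibitor gene, stood there at 11.24, beyond the range where a floor can be inferred, and for JICD1 its control was inferred at the floor, with a score of 0.200. The sources used here do not say whether these reads lie in the deleted part of the locus.

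Of the 18971 genes, 203 were called higher (1.07%) and 330 lower (1.74%). Each count of called list members below stands against these shares, and a single call in a list is not read as a result about that list. The NICD1 table gave 316 higher (1.64%) and 187 lower (0.97%). The median log2 ratio over all genes was 0.05, with quartiles of -0.43 and 0.50. The called genes had larger ratios: the median was 2.10 among those called higher and -2.46 among those called lower, and the smallest absolute ratio among them was 0.9988. At least 8-fold differences were held by 71 of the genes called higher and 135 of those called lower. A large ratio alone was common, with 2757 genes at 1 or more and 2728 at -1 or less, of which only 532 were called. Of these 5485 genes, 2345 (42.8%) lay on an edge of the plot of score against ratio traced by genes whose negative ratio is the same in both tables, and 1 of their groups was inferred to be at a floor value. No fold is given for such genes singly, but the counts of at least 8-fold differences above go by the listed ratio and include those called. Among the called genes the control was inferred at the floor in 5, the libraries labelled JICD1 in 13, and 2 ratios were too large to decide. The lowest score among the called genes was 0.800240737 and the highest among the others 0.799909288.

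**Figure D1:**
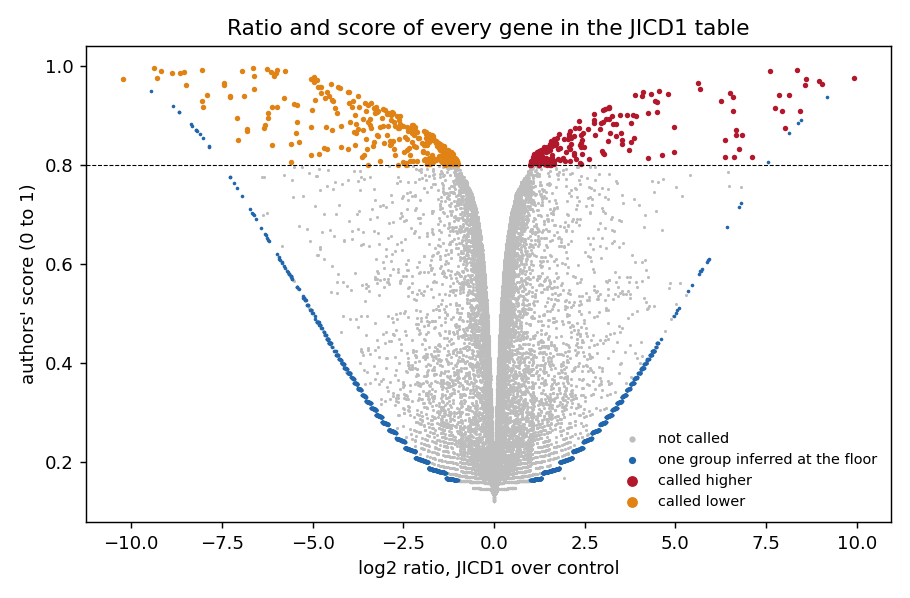
The log2 ratio of JICD1 over control (horizontal) is plotted against the authors' score (vertical) for every gene, with the score of 0.8 as a dashed line. Red and orange points are the genes called higher and lower, apart from those with a group inferred at the floor. Blue points, on the outer edge, are all genes with a group inferred at the floor, called or not.

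The ratios differed by chromosome, and 2 chromosomes stood apart from the rest. On chromosome 3 the median log2 ratio of 873 genes was 0.57, a 1.48-fold higher level in the libraries labelled JICD1, with quartiles of 0.09 and 0.98, and 79.4% of the genes lay above 0. On chromosome 15 the median of 690 genes was -0.45, a 1.37-fold lower level, with quartiles of -0.87 and 0.04, and 26.7% of the genes lay above 0. The other 18 chromosomes, X included, had medians from -0.02 to 0.18 and 49.2% to 65.9% of genes above 0. Chromosome 19 held the top of that range at 0.18, and the other 17 reached at most 0.07. With NICD1, set against the same control libraries, the median was 0.00 on chromosome 3, -0.06 on chromosome 15 and 0.44 on chromosome 19. Chromosomes other than 19 had NICD1 medians from -0.11 to 0.00.

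**Figure D2:**
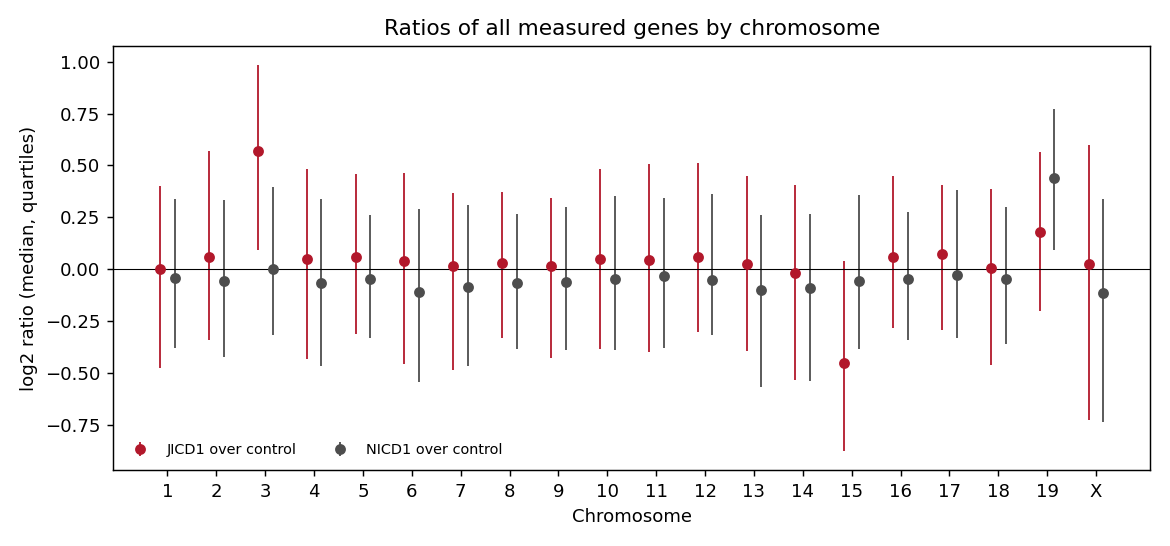
Points are the median log2 ratio of all measured genes of each chromosome and lines reach from the lower to the upper quartile, in red for JICD1 over control and in grey for NICD1 over the same control. Chromosome 3 (0.57) and chromosome 15 (-0.45) stand apart with JICD1, and chromosome 19 (0.44) with NICD1.

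The shift ran along the whole length of both chromosomes. When measured genes were taken in order in windows of 50, all 17 windows of chromosome 3 had medians above 0, between 0.40 and 0.74, and their NICD1 medians lay between -0.31 and 0.25. All 13 windows of chromosome 15 lay below 0, between -0.67 and -0.22, and their NICD1 medians lay between -0.17 and 0.11. The 11 windows of chromosome 19 ranged from 0.05 to 0.38 with JICD1 and from 0.23 to 0.73 with NICD1. Of 322 windows elsewhere, the 5th and 95th centiles were -0.16 and 0.19, and 5 passed 0.3 in either direction. An abundance proxy was made by ranking each gene's score among genes of similar absolute ratio. Among genes ranked above the middle by this proxy the median was 0.63 for chromosome 3 and -0.53 for chromosome 15. Without the called genes the medians were 0.55 and -0.42. DNA copy number was not analysed here.

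**Figure D3:**
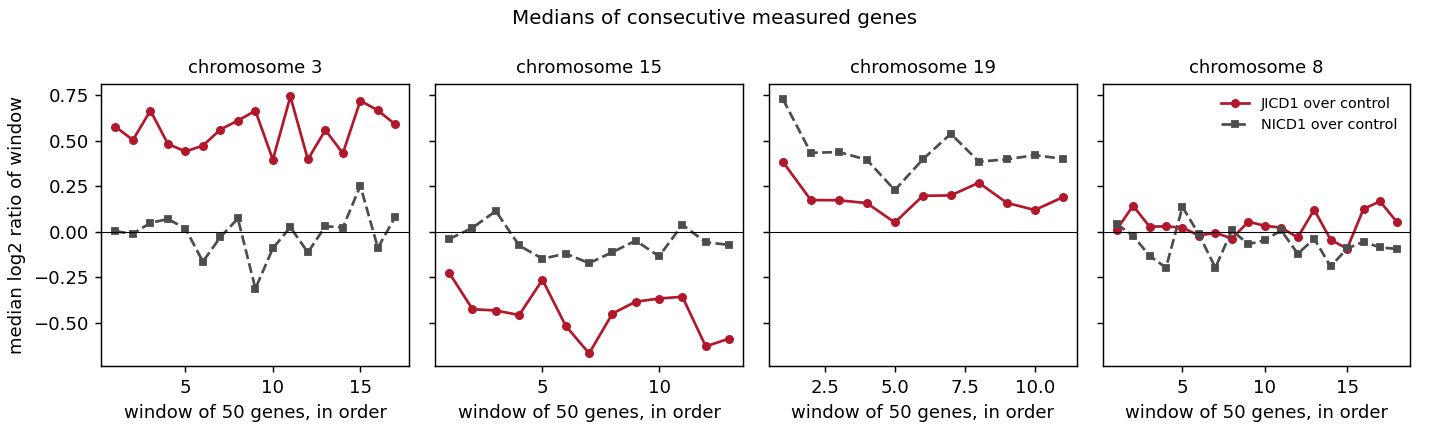
Each point is the median log2 ratio of 50 consecutive measured genes, in order along chromosomes 3, 15, 19 and, for comparison, 8; red is JICD1 over control and grey NICD1 over control. The red line stays between 0.40 and 0.74 on chromosome 3 and between -0.67 and -0.22 on chromosome 15.

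Calls were unevenly placed as well. Chromosome 3 held 34 genes called higher (3.89% of its genes, against 1.07% of all) and 6 called lower. Chromosome 15 held 36 called lower (5.22%, against 1.74% of all) and 7 called higher. On the other 18 chromosomes the shares ran from 0.291% to 2.00% for higher and from 0.645% to 2.65% for lower. After the chromosome's own median was subtracted, 17 of the 34 genes on chromosome 3 and 21 of the 36 on chromosome 15 still had an absolute ratio of at least 1. The genes that fall below that line include, on chromosome 3, the neural stem cell factor gene Sox2, at 1.45 per the authors' deposited table and 0.88 after subtraction, and Ect2, a cytokinesis factor gene, at 1.22 and 0.65. On chromosome 15 they include Myh9, which encodes non-muscle myosin, at -1.19 per the authors' deposited table and -0.74 after subtraction. Wnt7b, Mgat3 and Igfbp6 on chromosome 15 kept values of -8.08, -4.47 and -3.85. Genes called higher on chromosome 3 with large ratios included Tram1l1 at 8.57 per the authors' deposited table. Others, named after their values were seen, were the actin regulator Pfn2 at 4.11, the collagen gene Col11a1 at 3.87 and the actin-binding Nexn at 3.78. The authors' deposited NICD1 table puts Tram1l1 at 7.73 and Pfn2, Col11a1 and Nexn at 3.24, 4.58 and 3.15. In bulk RNA, fewer cells of a type and less RNA per cell cannot be told apart, here and in each comparison that follows.

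The 20 largest called ratios in each direction held secreted, membrane and nuclear factors. At the top of the genes called higher, the authors' deposited table placed Ctnnd2, a neuronal catenin gene, at 9.92 with a score of 0.977, beyond the range where a floor can be inferred. Slc6a15, a neutral amino acid transporter of the brain, followed at 9.04 (528-fold) and Gpc4, an astrocyte-secreted glypican, at 8.96 (499-fold) per the authors' deposited table. Khdrbs3, an RNA-binding protein gene, and Nid1, a basement membrane linker, had scores of 0.992 and 0.990, with ratios of 8.36 and 7.62 per the authors' deposited table. The protease gene Adamts9 (8.14), the guidance cue gene Sema3e (8.01) and the tyrosine kinase gene Syk (7.93) were among them per the authors' deposited table. For Pou3f2, Jph1, Tent5a and Eya4, among others, the control was inferred at the floor, so only the direction is given.

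The NICD1 ratios of these genes rest on the same control libraries. In the authors' deposited NICD1 table Gpc4 stood at 8.63, Khdrbs3 at 7.69, Nid1 at 8.63, Adamts9 at 7.27, Sema3e at 7.44 and Slc6a15 at 7.47. Brinp3, a gene of the nervous system, stood at 7.85 with JICD1, and its NICD1 group was inferred at the floor, per the authors' deposited tables. Pou3f2 had an NICD1 ratio of 0.87 (score 0.160) per the authors' deposited table.

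Among the genes called lower, the authors' deposited table placed Il1rn, the secreted interleukin-1 receptor antagonist, at -10.23 with a score of 0.975, beyond the range of the floor inference. Crip1, a LIM-domain protein gene, had the highest score at 0.998 and a ratio of -9.37 (661-fold lower) per the authors' deposited table. Next were Syt7, a calcium sensor of vesicle release (-9.28), the chemokine gene Cxcl12 (-9.16, 573-fold lower) and Plac8 (-8.88) per the authors' deposited table. St8sia2, which makes polysialic acid, stood at -8.64, Wnt7b at -8.54 and the leukotriene C4 synthase gene Ltc4s at -8.06 per the authors' deposited table. The scores of Ptgs1, Serpinf1, Cldn9, Col6a1 and Krt14 were 0.997, 0.995, 0.994, 0.992 and 0.989 per the authors' deposited table, with ratios of -6.64, -6.27, -5.98, -5.76 and -6.16. For Rbp2, Scara5, Dcn, P2ry14, Heph, Kcnk5, Elavl2, Enpp3 and Pate14 the libraries labelled JICD1 were inferred at the floor.

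The NICD1 values of the genes called lower ranged widely. In the authors' deposited NICD1 table Cxcl12 stood at 0.51, Plac8 at 0.83 and Serpinf1 at 0.61, none of them called. Crip1 stood there at -1.36 and was called lower (score 0.837). Cldn9 stood at -7.82 and Krt14 at -5.82, and for Rbp2 the NICD1 group was inferred at the floor.

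**Figure D4:**
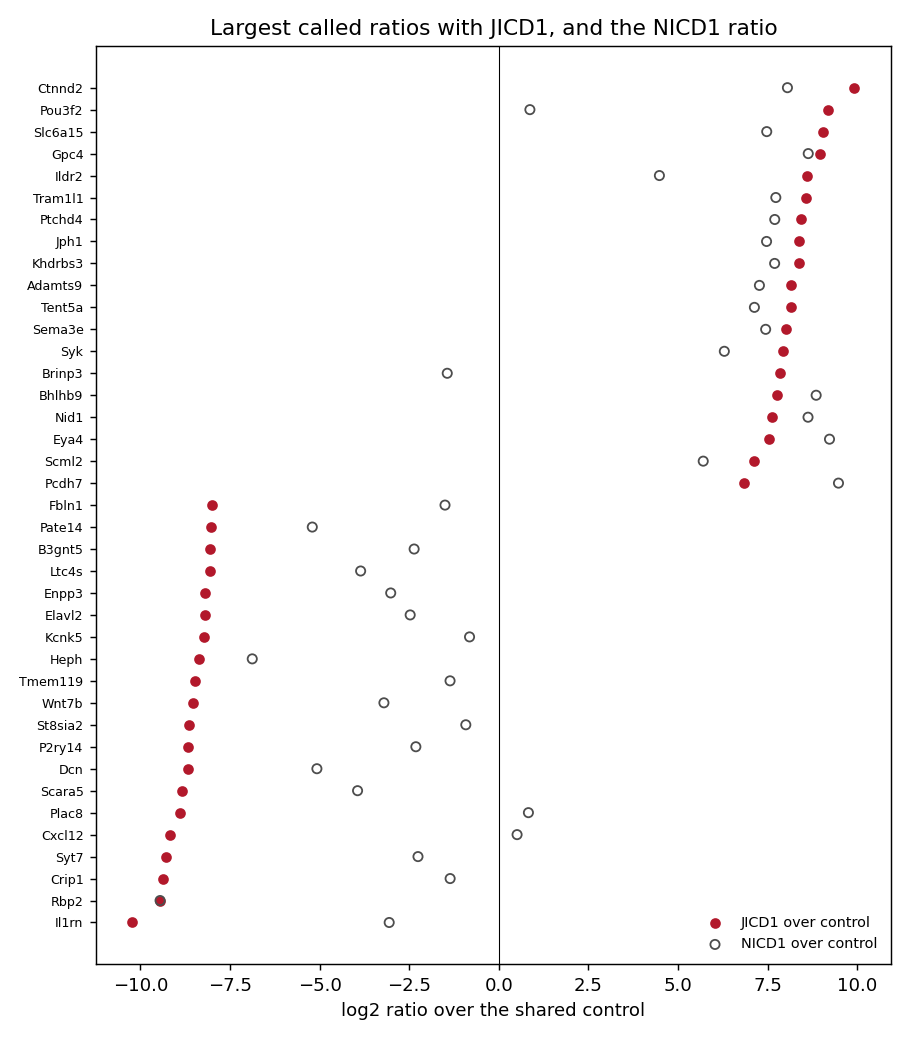
Filled red points are the log2 ratios of JICD1 over control for the 20 largest called genes in each direction, 1 of which is not shown, and open grey points the NICD1 ratios of the same genes over the same control. Cxcl12 and Plac8 have grey points at 0.51 and 0.83, neither called with NICD1, and Crip1 has a grey point at -1.36, called lower with NICD1. Gpc4 and Nid1 have both points above 7. For genes with a group inferred at the floor only the direction can be read.

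The promoters of Pou3f2 and Pou3f3, POU-domain factor genes of neural progenitors that were both called higher, and of Il1rn and Cxcl12, secreted immune factors that were both called lower, are shown as the starts of genes on which the account of transcription factors and cytokines turns. Each is the RefSeq stretch from 250 bases before to 50 bases after the start in GRCm38.p6. Pou3f2 is at chr4:22488317-22488616 on the minus strand, Pou3f3 at chr1:42695518-42695817 on the plus strand, Il1rn at chr2:24336610-24336909 on the plus strand and Cxcl12 at chr6:117168285-117168584 on the plus strand. Capitals mark the core motif of RBPJ, the DNA-binding partner of Notch, searched as TGGGAA on both strands, and the AP-1 motif, searched as TGACTCA or TGAGTCA.
Pou3f2: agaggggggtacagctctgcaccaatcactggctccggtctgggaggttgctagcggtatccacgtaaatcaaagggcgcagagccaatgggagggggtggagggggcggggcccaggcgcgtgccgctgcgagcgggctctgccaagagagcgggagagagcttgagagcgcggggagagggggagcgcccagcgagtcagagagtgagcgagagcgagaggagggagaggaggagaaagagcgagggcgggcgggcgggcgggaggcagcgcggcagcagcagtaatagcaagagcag
Pou3f3: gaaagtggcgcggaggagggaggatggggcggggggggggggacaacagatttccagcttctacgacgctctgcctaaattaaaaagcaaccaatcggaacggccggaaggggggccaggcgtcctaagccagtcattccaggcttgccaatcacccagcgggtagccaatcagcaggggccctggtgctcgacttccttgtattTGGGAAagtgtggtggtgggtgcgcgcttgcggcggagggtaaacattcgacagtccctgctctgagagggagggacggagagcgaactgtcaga
Il1rn: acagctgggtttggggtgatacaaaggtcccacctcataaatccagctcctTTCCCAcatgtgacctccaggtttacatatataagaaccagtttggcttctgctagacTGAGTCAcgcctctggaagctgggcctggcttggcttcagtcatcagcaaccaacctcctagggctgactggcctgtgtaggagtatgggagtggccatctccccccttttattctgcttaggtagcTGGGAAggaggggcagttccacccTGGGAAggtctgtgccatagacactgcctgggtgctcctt
Cxcl12: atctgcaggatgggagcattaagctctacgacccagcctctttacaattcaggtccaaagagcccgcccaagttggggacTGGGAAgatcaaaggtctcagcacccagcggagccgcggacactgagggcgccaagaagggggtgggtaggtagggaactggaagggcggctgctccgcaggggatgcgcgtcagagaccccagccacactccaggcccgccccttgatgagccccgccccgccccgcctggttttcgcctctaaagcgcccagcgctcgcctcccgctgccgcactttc
Il1rn held 3 RBPJ cores and 1 AP-1 motif, Pou3f3 and Cxcl12 held 1 RBPJ core each, and Pou3f2 held neither. The RBPJ core occurs in 25.5% of 27025 promoters of the same length and the AP-1 motif in 5.17%, and these matches say nothing about binding. The octamer ATGCAAAT, which POU factors recognise, was in none of the 4 and occurs in 1.75% of promoters.

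The interleukin-1 family had 5 of its 14 measured members called lower with JICD1 and none higher, and its median was -1.66 against 0.05 for all genes. Besides the antagonist gene Il1rn, the authors' deposited table called the receptor gene for interleukin-33, Il1rl1, lower at -4.95 (30.9-fold). The cytokine gene Il18 had -3.97, Irak2, a kinase relay of these receptors, -2.22 and Il18rap, a subunit of the interleukin-18 receptor, -2.19 per the authors' deposited table. The receptor gene Il1r1 stood at -2.22 and was not called, and Il33 stood at 0.57. In the authors' deposited NICD1 table Il1rn was the 1 member called lower, at -3.06 (score 0.893), and 2 members were called higher. There Il1rl1 had -0.40, Il18 0.14, Il18rap 0.13 and Irak2 0.00, and the list's NICD1 median was -0.17.

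Chemokines, which draw leukocytes, had a median of -0.93 over 22 members, with 4 called lower and 1 higher. Cxcl12 and the monocyte attractants Ccl7 (-4.49, 22.5-fold lower) and Ccl2 (-1.88, 3.68-fold lower), with the scavenger receptor gene Ackr3 (-1.84), were the lower ones per the authors' deposited table. The neutrophil attractant gene Cxcl3 was called higher at 6.58 (95.5-fold) per the authors' deposited table. Its relative Cxcl5 stood at 4.67 with a score of 0.773, not called. The NICD1 median of the same list was 0.62, with Cxcl3 at 5.56, Ccl7 at -1.97 and Ccl2 at -0.12 per the authors' deposited table.

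Complement genes, with a median of -0.74 over 17 members, had 2 called lower and none higher. These were Clu, the chaperone clusterin, at -3.88 (14.7-fold lower), and the lectin pathway protease gene Masp1 at -2.44 per the authors' deposited table. C3 stood at -2.94 and Cfb at -2.87 without a call. With NICD1 the median of the complement list was -0.88. There Clu was called lower at -2.30 and Masp1 stood at 0.79, not called, per the authors' deposited table. Toll-like and TNF receptor genes had 1 of 26 called, the receptor gene Tnfrsf1b at -1.68 per the authors' deposited table, and a median of -0.01.

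Antiviral interferon-stimulated genes went both ways, with a median of 0.26 over 34 members that turned to -0.56 among the members ranked higher by the abundance proxy. The tethering factor gene Bst2 was called higher at 1.33 (2.51-fold) and the transcription factor gene Irf1 lower at -1.43 (2.69-fold) per the authors' deposited table. None of 19 genes of MHC class I presentation was called; B2m stood at 0.01, H2-K1 at 0.06 and H2-D1 at 0.01, and the median was 0.31.

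Lipid mediator enzymes had called genes of large ratio on both sides. Ptgs1, the constitutive cyclooxygenase, was lower at -6.64 (100-fold), Ltc4s at -8.06 (266-fold) and Pla2g7, which degrades platelet-activating factor, at -2.85 per the authors' deposited table. Ptgds, which makes prostaglandin D2, was called higher at 4.50 (22.7-fold) per the authors' deposited table. The inducible Ptgs2 stood at -0.91, not called. The median of the 21 members was 0.07 and lay at -0.05 without genes at the inferred floor. With NICD1 the authors' deposited table put Ptgs1 at -1.07, Ltc4s at -3.86 and Ptgds at 0.47.

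Among the detoxifying glutathione S-transferases and aldo-keto reductases 4 of 25 were called lower and 1 higher, with a median of -0.69. The steroid-reducing enzymes Akr1c18 (-7.26, 153-fold lower), Akr1c13 (-3.73, 13.2-fold lower) and Akr1c14 (-2.10, 4.30-fold lower) lie next to each other on chromosome 13 and were all called per the authors' deposited table. Reads of these near-identical gene copies could be split between them by the counting, so single values are uncertain. Mgst2, on chromosome 3, stood at -3.04 and at -3.60 after that chromosome's median was subtracted, and Gsta1 was called higher at 1.23 per the authors' deposited table. The NICD1 values of Akr1c18, Akr1c13 and Akr1c14 were -2.35, -3.02 and -2.23 per the authors' deposited table.

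Genes of the NRF2 antioxidant response had 3 of 27 called lower and none higher, with a median of -0.19. The quinone reductase gene Nqo1 was at -2.22 (4.65-fold lower), the ferritin light chain gene Ftl1 at -1.12 and the glutathione reductase gene Gsr at -1.02 per the authors' deposited table. Hmox1 stood at 0.53 and Gclm at 0.71, neither called. With NICD1 the authors' deposited table has Nqo1 at 0.10, Ftl1 at -1.22 and Gsr at -0.95.

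Aldehyde dehydrogenases and genes of retinoid handling had 5 of 25 called lower and 1 higher, with a median of -0.29. Aldh3a1 was lower at -4.00 and the mitochondrial Aldh2 at -3.46 per the authors' deposited table. The retinol dehydrogenase gene Rdh10 was at -1.34 and the retinoic acid receptor gene Rarg, on chromosome 15, at -1.49, or -1.04 less the chromosome's median per the authors' deposited table. Rbp2, a retinol-binding protein gene, was inferred at the floor with both constructs. Aldh1l2, a mitochondrial folate enzyme, was higher at 1.23 per the authors' deposited table.

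Contractile and smooth muscle genes had the most calls in 1 direction of the lists examined: 9 of 30 were called lower, none higher, and 6 lay above 0. The median was -0.87, and -0.81 after chromosome medians were subtracted. Tpm2, a tropomyosin gene, stood at -6.61 (97.4-fold lower), and the smooth muscle actin gene Acta2 at -3.74 (13.4-fold lower) per the authors' deposited table. The focal adhesion and stress fibre genes Csrp1 (-1.67), Tpm1 (-1.56), Cald1 (-1.39), Csrp2 (-1.30), Vcl (-1.17) and Pdlim7 (-1.14) followed per the authors' deposited table, with Myh9 as given above. Tagln stood at -0.16 and Myl9 at 0.84, neither called. The same list had 5 members called higher and none lower with NICD1, where the authors' deposited table puts Tpm2 at 2.47 and Acta2 at 1.71.

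Keratin and epithelial junction genes had a median of -1.13 over 29 members, with 5 called lower and none higher. 6 of the members lie on chromosome 15, and after chromosome medians were subtracted the median was -0.81. The keratin gene Krt14 (-6.16, 71.4-fold lower) and the claudin gene Cldn9 (-5.98, 63.3-fold lower) had the largest called ratios per the authors' deposited table. Plakoglobin, Jup, was at -1.28, Perp, a desmosomal p53 target, at -1.22 and Krt80 at -1.13 per the authors' deposited table. Krt80 lies on chromosome 15 and had -0.68 after subtraction of its median. Krt19 stood at 2.17 and Cldn1 at 1.98 without a call.

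Of 31 integrin and laminin genes 3 were called lower and 1 higher. The fibronectin receptor subunit Itga5 stood at -1.94 (-1.49 less the median of chromosome 15), Itgb5 at -1.60 and Itga6 at -1.05, and Nid1 was high per the authors' deposited table. The NICD1 values of Itga5 and Itgb5 were 0.71 and 0.68 per the authors' deposited table. Of 30 cadherins, protocadherins and catenins 3 were called higher, Ctnnd2, Pcdh7 (6.85) and Cdh13 (1.43), and 2 lower, Pcdh1 (-3.80) and Pcdh19 (-2.27) per the authors' deposited table. Immunoglobulin-family adhesion genes had 2 of 25 called higher, Igsf3 at 2.42 (1.86 less the median of chromosome 3) and Kirrel3 at 1.66, and none lower per the authors' deposited table.

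Heparan sulfate proteoglycans split by member. Against the high Gpc4, the related Gpc1 was called lower at -1.04, with the synapse-organising Agrn at -1.69 and the sulfotransferase gene Hs6st1 at -1.57 per the authors' deposited table. The median of 26 members was -0.37.

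Growth factor genes had 6 of 43 called lower and 1 higher, and a median of -0.08. The lymphatic factor gene Vegfc (-3.42, 10.7-fold lower), Pdgfb (-2.84), Fgf7 (-2.62), the neurotrophic Gdnf (-1.88) and Artn (-1.22), and Pdgfa (-1.22) were the lower ones per the authors' deposited table. Pdgfb and Gdnf lie on chromosome 15 and had -2.39 and -1.43 after subtraction of its median. Vegfb was called higher at 1.30 (2.46-fold) per the authors' deposited table. Vegfa stood at -0.28, not called.

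Of their receptors, 4 of 27 receptor tyrosine kinase genes were called lower and none higher. Egfr, the receptor for EGF, was 27.0-fold lower at -4.76, Ptk7 18.7-fold lower at -4.23, Pdgfrb 4.49-fold lower at -2.17 and Fgfr1 2.81-fold lower at -1.49 per the authors' deposited table. Their NICD1 ratios were -0.51, 0.71, 0.08 and 0.55 per the authors' deposited table. The median of the list was 0.03, and -0.25 among members ranked higher by the abundance proxy; Met stood at 0.03 and Axl at 0.00. Among MAPK feedback inhibitors 1 of 27 was called, Dusp9 at -1.42 per the authors' deposited table, and Spry2, Dusp6 and Etv5 stood at 0.47, 0.22 and 0.12.

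IGF-related genes included Igfbp6, called lower at -4.30 (19.7-fold), Igfbp7 at -1.01, and the RNA-binding Igf2bp2, called higher at 1.51 (2.85-fold) per the authors' deposited table. Igfbp6 was also lower with NICD1, at -4.51, while Igf2bp2 had -0.54 there per the authors' deposited table.

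Wnt pathway genes had 5 of 37 called lower and 1 higher, with a median of -0.28. The ligand genes Wnt7b, Wnt9a (-2.96) and Wnt10a (-1.59), the receptor gene Fzd7 (-1.93) and the nuclear effector gene Tcf7 (-1.33) were lower, and the ligand gene Wnt7a was higher at 1.76 per the authors' deposited table. The close relatives Wnt7a and Wnt7b were thus called in opposite directions. With NICD1 the authors' deposited table gives -1.26 for Wnt7a and -3.21 for Wnt7b. The feedback target Axin2 stood at 2.60 without a call.

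BMP signalling genes had 3 of 29 called lower, Fstl1 (-2.99), the antagonist gene Nbl1 (-2.26) and the procollagen protease gene Bmp1 (-1.22), and 1 higher, the activin antagonist gene Fst (1.21) per the authors' deposited table. The Id genes, direct targets of the pathway, lay near 0, with Id1 at 0.17, Id2 at -0.14, Id3 at -0.08 and Id4 at -0.15.

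Guidance genes had 5 calls, against shares of 1.07% called higher and 1.74% called lower among all genes. Semaphorins, plexins and neuropilins had a median of -0.56 over 30 members, with Sema3e and Sema3c (2.40, 5.27-fold) called higher and Sema7a (-3.09, 8.53-fold lower) called lower per the authors' deposited table. Epha4 was the single call among 19 ephrin and Eph genes, at -6.12 (69.4-fold lower), and Robo2, a Slit receptor, among 18 netrin, Slit and Robo genes, at -2.62 per the authors' deposited table. The corresponding NICD1 ratios were 0.81 for Sema7a, -1.61 for Epha4 and -0.37 for Robo2 per the authors' deposited table.

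Transcription factor genes of neural patterning, the homeobox and POU list, had a median of 0.11 over 36 members, against 0.05 for all genes. In this list 4 were called higher and none lower, against shares of 1.07% and 1.74% among all genes. The genes called higher included Pou3f2, Pou3f3 (5.62, 49.1-fold) and the transcriptional cofactor gene Eya4 per the authors' deposited table. Of the members that were not called, Eya1 stood at 6.49 and Pax6 at -0.85. Pou3f3 had an NICD1 ratio of 6.95 per the authors' deposited table, and 6 members were called higher with NICD1. Nfia, a factor of astrocyte formation, was called higher at 3.77 (13.7-fold) per the authors' deposited table.

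The Hox genes, which mark position along the body axis, had calls on both sides. Hoxb6 was called higher at 3.35 and Hoxa10 lower at -2.33, with the cofactor gene Meis3 at -1.47 per the authors' deposited table. The neighbours Hoxb3, Hoxb5 and Hoxb8 stood at 2.46, 2.66 and 4.48 and Hoxa9 at -3.22, without calls, and for Hoxb9 and Hoxb13 the libraries labelled JICD1 were inferred at the floor. Of the 8 measured Hoxb genes 5 lay above 0. With NICD1 the authors' deposited table has Hoxb6 at -3.10 and Hoxa10 at -6.48. The median of the 28 members was -0.07, and 0.02 without genes at the inferred floor.

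Other factor families had 1 or 2 calls. Sox2 was higher, as given above, and Sox4 lower at -1.55 per the authors' deposited table, while the glial factor gene Sox9 stood at -0.84. The forkhead genes Foxf1 (-3.29, 9.79-fold lower) and Foxp1 (-1.12) were called lower of 30 Klf and Fox genes, and the vitamin D receptor gene Vdr (-2.76; -2.30 less the median of chromosome 15) with Rarg of 30 nuclear receptors per the authors' deposited table.

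Genes of neurites and synapses were mixed. Of 32 microtubule and neurite genes, Map2 (3.02, 8.14-fold) and Tubb2b (2.06, 4.17-fold) were called higher and Tubb3 (-2.16), Tuba1a (-1.78) and Dpysl3 (-1.46) lower per the authors' deposited table. Tuba1a lies on chromosome 15 and had -1.33 after subtraction. Of 35 synaptic genes Syt7 and Syn1 (-1.85) were called lower, and none higher per the authors' deposited table. None of 18 glutamate, GABA and glycine receptor genes was called. Potassium channels had 1 call of 27, Kcnk5, with the libraries labelled JICD1 inferred at the floor, and sodium and calcium channels 1 of 29, the osmosensing Trpv4 at -5.50 (45.3-fold lower) per the authors' deposited table.

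Transporters of amino acids had 1 call on each side of 27, Slc6a15 and Slc43a2 (-4.69, 25.9-fold lower) per the authors' deposited table. The glutamate transporters of astrocytes, Slc1a2 and Slc1a3, stood at 0.79 and 0.03. None of 22 glucose, lactate and nucleoside transporter genes was called, Slc2a1 standing at 0.07. In metal handling, Cp, the ferroxidase ceruloplasmin, was called lower at -2.67 (6.38-fold) although it lies on chromosome 3, and the iron exporter gene Slc40a1 stood at -5.80 with a score of 0.781, not called per the authors' deposited table.

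Lysosomal and lipid genes had called members on the higher side. The lysosomal list had 22 of 30 above 0 and a median of 0.33, or 0.23 less chromosome medians with 4 members on chromosome 3, with the glucosidase gene Gaa (1.57, 2.96-fold) and Gpnmb (1.06, 2.09-fold) called higher per the authors' deposited table. Gpnmb stood at -8.53 with NICD1 per the authors' deposited table. Of 38 genes of fatty acid storage and oxidation 28 lay above 0, with a median of 0.42, and the cholesterol exporter gene Abca1 (2.48, 5.59-fold) and Cpt1a (1.28, 2.43-fold), which admits fatty acids to mitochondria, were called higher per the authors' deposited table. Among all genes 54.5% lay above 0, and other lists reached similar shares, such as 23 of 30 mitotic genes and 41 of 58 ribosomal protein genes.

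Among genes of cell division none of 38 DNA replication genes was called, with a median of 0.05, and Pcna, Mcm2 and Mcm5 stood at 0.06, 0.05 and -0.02. Of 30 mitotic genes 1 was called, Ect2 on chromosome 3, and the median was 0.13; Cdk1, Ccnb1 and Mki67 stood at 0.03, 0.05 and 0.38. Among CDK inhibitors and p53 targets the arrest gene Cdkn1a was called higher at 2.35 (5.09-fold) with Gadd45g at 1.14 (2.21-fold), and Perp was called lower per the authors' deposited table. Mdm2, a further p53 target, stood at 0.32. The list's median was 0.34 over 30 members.

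Replication-dependent histone genes had the highest median of the pathway lists, 0.66 over 48 members, 31 above 0, against an NICD1 median of -0.94. Only H2bc4 (2.96, 7.76-fold) and H1f2 (2.74, 6.69-fold) were called higher per the authors' deposited table. Of the members that were not called, Hist1h4j stood at 2.64 and H2bc21 at 2.55, and those above 3 or below -3 had a group inferred at the floor. The copies are near identical, so single values are uncertain.

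Ribosomal protein genes (58 measured, median 0.11), subunits of oxidative phosphorylation (51, median 0.06) and proteasome subunits (31, median 0.08) had no call. On chromosome 3 the authors' deposited table has Rpl34 at 1.18, Psmb4 at 0.79, Psma5 at 0.78, Ndufb5 at 0.72 and Ndufc1 at 0.66, and less the chromosome's median these were 0.61, 0.22, 0.21, 0.15 and 0.09. On chromosome 15 it has Rpl3 at -0.57, Rpl37 at -0.43, Cox6c at -0.57 and Ndufb9 at -0.40, and 0 proteasome members lie there. Members of other chromosomes also reached such values, as Rpl29 on chromosome 9 did with 0.66.

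**Figure D5:**
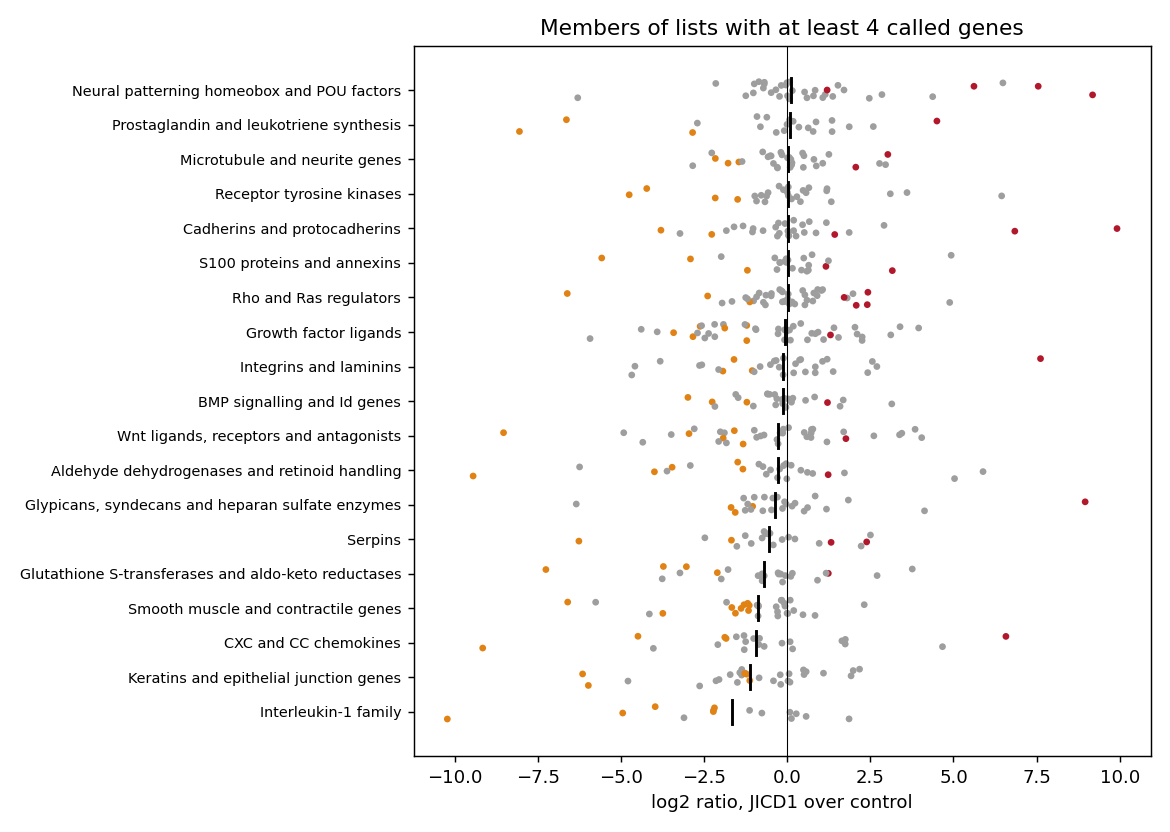
Each point is a measured member of a pathway list with at least 4 called genes, placed by its log2 ratio of JICD1 over control; red is called higher, orange called lower, grey not called, and the black bar is the list's median. The interleukin-1 family (median -1.66), keratins and junction genes (-1.13), chemokines (-0.93) and contractile genes (-0.87) have the lowest medians.

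Called genes also lay side by side in places. In 10 stretches of up to 10 consecutive measured genes at least 3 were called in 1 direction, and 4 of the 10 were lower stretches on chromosome 15. At chr15:77403789-77842175 the apolipoprotein L genes Apol9a (-3.07), Apol10b (-2.85) and Apol9b (-2.45) were called with Myh9 per the authors' deposited table. The family Apol had 9 measured genes with a median of -2.45 and 1 above 0, and its copies are alike enough to share reads. With NICD1 Apol9a (-2.07) and Apol9b (-1.88) were also called lower per the authors' deposited table. Apol10b stood there at -1.49 and Myh9 at 0.23, neither called. At chr15:79892058-80215519 the antiviral deaminase gene Apobec3 (-1.06, or -0.61 less the chromosome's median), Pdgfb and Mgat3 were called lower per the authors' deposited table. On chromosome 14, at chr14:65666403-66281100, the ferritin receptor gene Scara5, Clu and the kinase gene Ptk2b (-5.46) were called lower per the authors' deposited table. At chr13:55464267-55513473 the adjacent genes Prr7 (-1.80), Dbn1 (-2.74), an actin-binding protein of dendritic spines, and Pdlim7 were called lower per the authors' deposited table. At chr13:31884225-33041884 the protease inhibitor genes Serpinb6b (2.39) and Serpinb9b (1.32) were called higher with Gm11380 per the authors' deposited table. Positions are those of the GRCm38 annotation, in which the tables' gene IDs were looked up.

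A stretch at chr9:3003346-3033289 held 3 gene models without an established name, Gm11168 (3.73), Gm10719 (3.66) and Gm10717 (3.93), all called higher per the authors' deposited table. Gm10800 and Gm10801, named after their values were seen, were called higher at 2.77 each. With NICD1 the authors' deposited table lists these 5 models at -0.76, -1.82, -0.65, -1.51 and -1.39. Gene models of this kind can share reads with repeats, so their values are uncertain.

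Over 12 measured genes of chromosome Y the median was 0.68, and over the 10 of them with an NICD1 ratio the NICD1 median was -0.09. Among the 6 genes ranked above the middle by the abundance proxy the JICD1 median was 1.28 and the NICD1 median 0.92. Ddx3y (1.25) and Eif2s3y (1.35) were called higher, and Kdm5d (1.51) and Uty (1.32) were not per the authors' deposited table. The NICD1 ratios were 1.09 for Ddx3y, 0.92 for Eif2s3y, 0.91 for Kdm5d and 1.16 for Uty per the authors' deposited table. These genes were named after their values were seen.

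Gene ontology text accompanied 15195 genes of the authors' deposited table, 174 of those called higher and 297 of those called lower. The word extracellular occurred in 13.2% of the genes called higher, 20.9% of those called lower and 5.72% of all. Immune occurred in 3.45%, 6.4% and 2.58% in the same order, plasma membrane in 6.90%, 8.08% and 4.38%, and transcription factor in 10.3%, 9.43% and 7.57%. G-protein coupled receptor was in 1.15%, 3.70% and 2.20%. Mitochondrion was in 1.72% of the genes called higher, in 0 of 297 called lower and in 0.954% of all.

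The tables hold no levels, so whether markers of the labelled cell type were expressed could not be checked. Of 19 listed astrocyte genes 4 had no ratio. The 15 measured had a median of -0.27, which was 0.02 over members named by the table's own symbols. The defining genes Gfap, Aldh1l1, Gja1 and S100b stood at -1.36, -0.85, -0.59 and 0.02, none called, and Clu and Nfia were called in opposite directions, as above. The 13 measured fibroblast and pericyte markers had their median at -1.19, and 5 were called lower: Dcn, Anpep (-3.79), Col3a1 (-2.81), Pdgfrb and Col1a1 (-1.19) per the authors' deposited table. Col1a2 stood at 0.92 and Fap was listed with the control inferred at the floor. The contractile genes also had a median below 0 (-0.87), while that of the receptor tyrosine kinase genes was 0.03. With NICD1 the median was -1.44 over 12 fibroblast and pericyte markers, 2 called higher and 2 lower. The NICD1 median of 29 contractile genes was 0.23. Pdgfrb belongs to both the marker list and the receptor list. The part of these markers in the contractile and receptor results was not tested. The microglia marker gene Tmem119 was called lower at -8.48 per the authors' deposited table, and the 11 measured markers of microglia and macrophages had a median of -0.61 with 8 below 0. Of these Cx3cr1, Csf1r, Cd68 and Itgam stood at -0.61, -0.12, -0.04 and 0.09, none called, and for Aif1 the libraries labelled JICD1 were inferred at the floor. Neuron markers (12 measured, median 0.36, but -0.61 with table symbols only) had Map2 called higher and Tubb3 lower, and no oligodendrocyte, endothelial, ependymal or Schwann cell marker was called.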

How the data were processed

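RNA-seq was done on 9 libraries, 3 in each of 3 groups, and the 6 libraries of the control and JICD1 groups make up the comparison. The submitters' processing notes name Bowtie2, BWA and mm9 without saying what each was used for. The gene descriptions of 11612 rows name GRCm38, so coordinates and chromosomes were taken from GRCm38 annotation (RefSeq and GENCODE vM21) by gene ID. The log2 values are the authors' ratios of transfected over control per gene, as deposited, with how libraries were combined not stated. The score is the column headed Probability in the deposited tables, from 0 to 1, with its method not stated. A replicate test was in the plan, but with 1 ratio per gene, and 0 unused per-sample columns, none could be run.

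A gene was called at a score of at least 0.8. A group was inferred at a floor where a gene whose ratio was 1 or more, or -1 or less, lay within 0.002 (0.01 above 6) of the edge traced by 694 genes with equal negative ratios in both tables (tolerance 1e-06), up to 9.45. The abundance proxy ranks the score among the 300 genes nearest in absolute ratio. The floor inference and the chromosome medians were tried on simulated data whose score was made from ranks of the ratio and the difference. The method of the authors' score is not stated, so that trial cannot check the floor calls made here. Of 11586 rows without a symbol 11296 were named from the reference, 290 genes remained without a name, and 97.97% had a chromosome. The 60 gene and marker lists and the members were chosen with earlier results of these data known. An older symbol was matched only where no current gene bears it. Genes were named by rule: Jag1, Notch1 and Cdkn2a, the 20 largest called ratios and 10 highest scores in each direction, up to 5 called members per list (or 2 members where fewer were called), and called members of positional stretches; list members outside the rule are given as examples. Values of a few such genes are left out here. RefSeq promoters were found for 70.4% of called genes, below the 80% required, so the planned comparison of motif shares is void and was not made. Python 3.11.15, pandas 2.3.3, numpy 2.4.6 and matplotlib 3.10.9 were used.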

Additional observations from a re-analysis of the deposited data

How the results depend on the processing

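No paired analysis was possible because only 1 ratio for each gene, over all libraries of a group, was analysed; for the same reason no library could be left out and no low-count filter or other normalization could be tried, and depth limits are unknown. The count of called genes follows the score chosen: at 0.7 it was 793 higher and 840 lower, and at 0.9 it was 40 higher and 85 lower, against 203 and 330. It stayed within 1.5 times of the reported counts with a further limit of 1 on the absolute ratio (202 and 330) and over genes in both tables (202 and 330). The same held without genes at the inferred floor (198 and 317). With the median of all genes subtracted it was 203 and 330, which was fixed in advance. The score alone sets a call, and the shift of 0.05 is smaller than every called absolute ratio. Alternatives were also chosen after seeing the data. Without chromosomes 3 and 15 the counts were 162 and 288, which only leaves out the calls on them. With chromosome medians subtracted and an absolute value of at least 1 then required besides the score, they were 180 and 314. Spans of 20 genes gave 22 stretches of called genes, against 10. The medians of chromosomes 3 and 15 ranged from 0.53 to 0.63 and from -0.53 to -0.42 under 5 alternatives each, and that of chromosome 19 from 0.17 to 0.26. The 220 named genes kept their direction under that subtraction of the median of all genes, which could not change their calls and so is no check of them. Of 299 list medians recomputed, 212 moved by less than 0.1 and 46 changed sign, 16 of 60 with table symbols only and 12 of 59 among genes ranked higher by the abundance proxy; the cause was not tested. The largest median that changed sign was that of the endothelial markers, 0.81 against -1.89 with table symbols only. The motif alternatives were not run.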
